A study of Mus musculus with 16 samples.

Results

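The genes described here are 10 components of the mTOR pathway, namely Mtor, Rptor, Rictor, Mlst8 and Deptor of the mTOR complexes, Tsc1, Tsc2 and Rheb of the switch upstream of them, the nutrient sensor Sesn1, and Eif4ebp1, a translation repressor that the pathway acts on. They were chosen by name out of 22911 genes with a named probe on the array, and all 10 were found. RNA from brown adipose tissue (BAT) and gonadal white adipose tissue (gWAT) of male C57BL/6NCrSlc mice on normal chow was hybridized to 16 Agilent 1-colour arrays, with 4 arrays in each of 4 groups. Adipo-Pgam1 KO mice (KO mice below) carried Adipoq-Cre and Pgam1 flox/flox. Their littermate controls carried Pgam1 flox/flox without Adipoq-Cre, so that both genotypes had the floxed alleles and only the knockouts had the Cre transgene. The mice were 16 weeks old, apart from Adipo-Pgam1 KO replicate 4, aged 14 weeks in both tissues. Adipoq-Cre is driven by the adiponectin promoter and acts in adipocytes, while the other cells of the tissue keep Pgam1, which encodes a glycolytic enzyme. In whole tissue, fewer cells of a type and less RNA per cell cannot be told apart.

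mTOR is a protein kinase that works in a pair of complexes. In mTORC1 it is joined by raptor (Rptor), which presents substrates, and in mTORC2 by rictor (Rictor), while mLST8 and the inhibitor DEPTOR are found in both. The small GTPase Rheb switches mTORC1 on at the lysosome, and the TSC complex, of which hamartin (Tsc1) and tuberin (Tsc2) form the core, switches Rheb off. Amino acids act through the Rag GTPases, which bring mTORC1 to the lysosome. GATOR1 holds the Rags in check, GATOR2 opposes GATOR1, and the Sestrins, of which Sesn1 encodes one, hold back GATOR2 when leucine is scarce. Active mTORC1 phosphorylates the translation repressor 4E-BP1 (Eif4ebp1) and the S6 kinases. In adipose tissue the pathway is known for its part in adipocyte differentiation and lipid storage. Its activity is set largely by phosphorylation, which transcript arrays do not measure.

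Expression is given as the normalised log2 intensity, which is the log2 of a probe's background-subtracted signal over the 75th percentile of its array. On this scale the values of a gene can be compared between arrays but not with those of another gene. Changes are differences of group means on this scale, with their standard error (SE) and, for single genes, 95% intervals that are not adjusted for the number of genes. A change was called past the threshold at an adjusted p of 0.05 in limma, with Benjamini-Hochberg adjustment over all genes tested. The labels do not say that the arrays of a group came from separate animals, so the p-values measure the spread between these arrays. The brightest probe of each of the 10 genes was well above background on all 16 arrays. Pgam1 fell in BAT, from between 7.82 and 8.07 in controls to between 6.03 and 6.43 in KO mice. In gWAT Pgam1 went against the label, with 5.07 to 5.67 in controls and 5.95 to 6.50 in the KO-labelled arrays (log2 change 0.95, adjusted p = 0.0139 in limma). Those 4 gWAT arrays are called KO-labelled. The same Pgam1 probe was used in both tissues, and its log2 change in BAT was -1.74 (adjusted p = 1.11e-05 in limma). The sources used here do not name the floxed exons, so whether the probe lies in the deleted part was not tested. Each direction given below for gWAT therefore rests on a label that Pgam1 went against. Slide 1 held 3 BAT controls, and slide 2 held the remaining BAT control with all 4 BAT knockouts. The other 3 gWAT controls were on slide 2 as well, and slide 3 held the remaining gWAT control with all 4 KO-labelled gWAT arrays. Slides 1 and 2 were scanned on 1 day and slide 3 on another. In each tissue 3 of the 4 controls were thus on another slide than all knockouts, so that slide and genotype are largely confounded. Among the controls, only BAT control replicate 4 shared a slide with gWAT controls, so slide and tissue are largely confounded as well.

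Promoter sequences from RefSeq on build GRCm38.p6, running from 250 bases before to 50 bases after each start site, matched 8 of the 10 genes in 9 windows, since Sesn1 has a pair of start sites. Deptor and Eif4ebp1 did not match. Each window was searched on both strands for the ATF4 response element, TGATGNAA, and for the E-box of the TFEB family, CACGTG. The ATF4 element was in none of the 9 windows, against 3.97% of 32851 mouse promoters of the same length. The E-box, held by 7.15% of those promoters, was in 1 window, that of Rheb, where its first base lies at -96 from the start site. Below are the windows of Rheb (chr5:24842312-24842611, minus strand), shown for its E-box in capitals, of Tsc2 (chr17:24632578-24632877, minus strand), whose transcript fell in BAT, and of Mtor (chr4:148448332-148448631, plus strand), whose transcript had the lowest adjusted p of the 10 between the control tissues.
Rheb: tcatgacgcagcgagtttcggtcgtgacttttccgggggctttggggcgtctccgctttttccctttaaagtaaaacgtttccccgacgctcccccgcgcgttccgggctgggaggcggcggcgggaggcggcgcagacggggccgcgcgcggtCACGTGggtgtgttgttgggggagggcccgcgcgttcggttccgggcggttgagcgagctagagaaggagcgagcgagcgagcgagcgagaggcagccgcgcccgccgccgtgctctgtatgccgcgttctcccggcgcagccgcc
Tsc2: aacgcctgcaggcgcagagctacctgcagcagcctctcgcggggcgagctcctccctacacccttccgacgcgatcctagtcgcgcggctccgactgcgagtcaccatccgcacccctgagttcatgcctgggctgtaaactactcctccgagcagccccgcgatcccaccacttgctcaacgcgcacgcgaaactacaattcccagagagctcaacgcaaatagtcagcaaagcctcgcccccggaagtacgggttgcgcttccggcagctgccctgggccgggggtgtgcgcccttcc
Mtor: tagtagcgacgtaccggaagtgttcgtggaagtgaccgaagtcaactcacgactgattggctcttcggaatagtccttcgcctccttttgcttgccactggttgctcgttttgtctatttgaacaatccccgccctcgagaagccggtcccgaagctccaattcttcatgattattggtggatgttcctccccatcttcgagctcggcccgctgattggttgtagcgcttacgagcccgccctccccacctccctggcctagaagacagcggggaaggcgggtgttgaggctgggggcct
All 3 windows were rich in CpG, with 47 CpG dinucleotides and 70.0% GC in Rheb, 29 and 65.0% in Tsc2, and 21 and 56.67% in Mtor, beside medians of 7.0 and 52.67% over all promoters. A match, or its absence, describes these letters in this window and no more.

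In BAT, Tsc2 and Eif4ebp1 fell in KO mice and Deptor rose, while Mtor, Rptor, Rictor, Mlst8, Tsc1, Rheb and Sesn1 did not pass the threshold. Of all 14280 genes tested in BAT, 27.5% were called higher and 34% lower, so that 1 of 10 higher and 2 of 10 lower were shares below those of all genes. In gWAT, Deptor was the single gene of the 10 to pass, and it was higher in the KO-labelled arrays. Of all 14149 genes tested in gWAT, 9.99% were called higher and 7.85% lower. The median log2 change of the 10 genes was -0.20 in BAT and 0.039 in gWAT, beside -0.081 and 0.047 over all genes tested. Between the control tissues, Mtor, Rptor, Mlst8, Deptor and Tsc2 were higher in BAT than in gWAT and Sesn1 was lower. Of all 14304 genes tested there, 35.4% were called higher and 29.3% lower in BAT. The control arrays are the same ones that enter the comparisons with Adipo-Pgam1 KO.

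**Figure D1:**
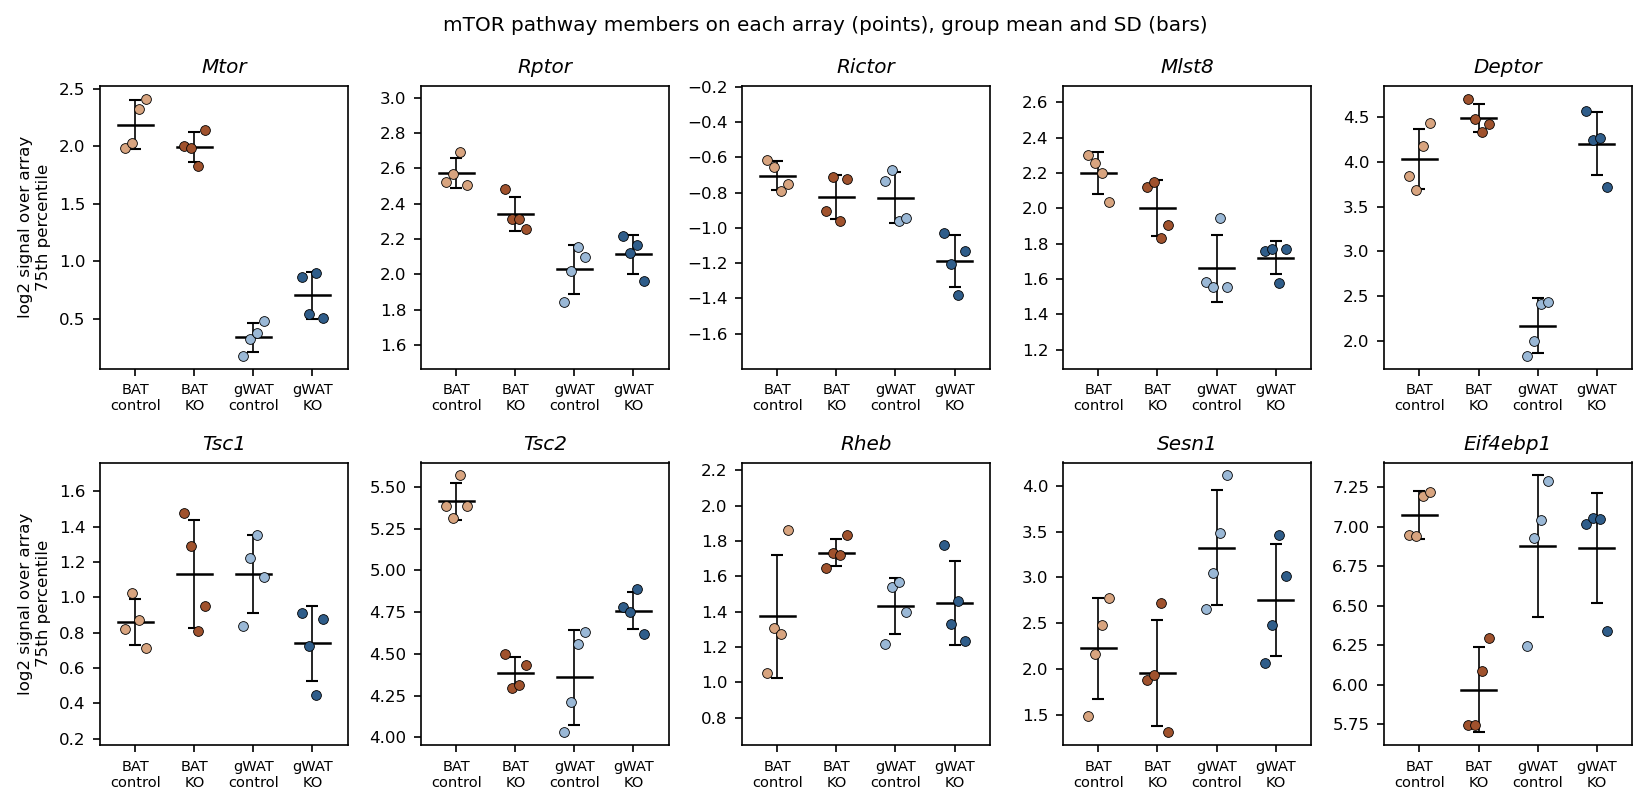
Normalised log2 intensity (log2 signal over the array's 75th percentile, vertical axis, its own range for each gene) of the 10 genes on every array, in BAT control, BAT KO, gWAT control and gWAT KO as labelled. Each point is 1 array, the long bar is the mean of 4 arrays and the error bar their SD. Deptor was at 1.83 to 2.44 in gWAT controls and at 3.69 or more on every other array, and Tsc2 was at 5.32 or more in BAT controls and at 4.89 or less on every other array.

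The catalytic subunit Mtor was set apart by tissue more than by genotype. In BAT controls Mtor stood at 1.99, 2.03, 2.32 and 2.41, and in BAT of KO mice at 2.003, 1.99, 1.82 and 2.14. In gWAT it stood at 0.18, 0.32, 0.37 and 0.48 in controls and at 0.86, 0.54, 0.89 and 0.51 in the KO-labelled arrays. All 8 BAT arrays were thus above all 8 gWAT arrays, the BAT genotypes overlapped, and the gWAT genotypes did not. The difference between control tissues was 1.85 (SE 0.14, adjusted p = 8.20e-06 in limma), or 3.61-fold higher in BAT. The change with genotype was -0.20 in BAT (SE 0.13, adjusted p = 0.207) and 0.36 in gWAT (SE 0.14, adjusted p = 0.102), neither of them past the threshold in limma. The exact two-sided permutation test gave p = 0.0286 for Mtor in gWAT, the lowest value possible with 4 arrays a group. Any 2 groups of 4 that do not overlap get this value, which is not adjusted for the number of genes. Rictor and Deptor in gWAT and Rptor, Tsc2 and Eif4ebp1 in BAT got it too. The share of all genes without overlap was not counted, so this value sets none of these genes apart. The order of the group means, from BAT control at 2.19 through BAT KO at 1.99 and gWAT KO at 0.70 to gWAT control at 0.34, put the 2 genotypes of a tissue next to each other, and neither pair passed the threshold.

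Rptor and Mlst8, the mTORC1 partner and the subunit shared by both complexes, followed the same order of tissues in controls with smaller differences. Rptor stood at 2.52, 2.57, 2.69 and 2.51 in BAT controls and at 2.48, 2.31, 2.31 and 2.26 in BAT of KO mice. It stood at 1.84, 2.02, 2.15 and 2.10 in gWAT controls and at 2.21, 2.12, 2.16 and 1.96 in the KO-labelled gWAT arrays. The BAT genotypes did not overlap, with every knockout below every control, whereas the gWAT genotypes did. The log2 difference between control tissues was 0.55 (SE 0.11, adjusted p = 0.00243 in limma). The change with genotype missed the threshold in BAT, at -0.23 (95% interval -0.44 to -0.020, adjusted p = 0.0565 in limma), and in gWAT, at 0.087 (95% interval -0.19 to 0.37, adjusted p = 0.655). The BAT result was close to the threshold, and it stayed on the same side of it and of 0 under 19 of 24 alternatives. With the 8 arrays left out in turn, its adjusted p ran from 0.0333 to 0.139 in limma.

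Mlst8 ranged from 2.04 to 2.30 in BAT controls, from 1.83 to 2.15 in BAT of KO mice, from 1.56 to 1.95 in gWAT controls and from 1.58 to 1.77 in the KO-labelled gWAT arrays. The genotypes overlapped in each tissue, and the control tissues did not overlap. The log2 difference between control tissues was 0.54 (SE 0.13, adjusted p = 0.00574 in limma), and the changes with genotype were -0.20 in BAT (adjusted p = 0.157) and 0.060 in gWAT (adjusted p = 0.788).

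Rictor, the defining subunit of mTORC2, differed little between control tissues, by 0.12 on the log2 scale (95% interval -0.13 to 0.38, adjusted p = 0.353 in limma). It stood at -0.62, -0.66, -0.79 and -0.75 in BAT controls and at -0.90, -0.71, -0.96 and -0.72 in BAT of KO mice, which overlapped (log2 change -0.12, adjusted p = 0.316 in limma). In gWAT Rictor stood at -0.74, -0.67, -0.96 and -0.94 in controls and at -1.03, -1.20, -1.38 and -1.13 in the KO-labelled arrays. Those groups did not overlap, and the log2 change of -0.36 (SE 0.13, adjusted p = 0.0896 in limma) missed the threshold. Rictor has 3 probes, of which the other two were dimmer, and they changed by 0.31 and 0.23 in BAT, against the sign of the brightest, and by -0.50 and -0.38 in gWAT.

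Deptor, which encodes the inhibitor found in both complexes, had the largest change of the 10 genes, in gWAT. It stood at 1.83, 1.998, 2.42 and 2.44 in gWAT controls and at 4.57, 4.25, 4.27 and 3.72 in the KO-labelled gWAT arrays. Every labelled knockout was above every control by more than the spread of either group. The log2 change was 2.03 (SE 0.22, adjusted p = 0.00170 in limma), or 4.09-fold, and 106 of the 14149 genes tested in gWAT had a larger rise. The second Deptor probe changed by 2.12, and without the younger replicate 4 of the labelled knockouts the change was 2.19 (adjusted p = 0.00170 in limma). When the slide entered as a fixed block, so that the labelled knockouts were set against the single control on their slide, the change was 1.76 and no longer passed the threshold (adjusted p = 0.0571 in limma).

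In BAT, Deptor stood at 3.85, 3.69, 4.18 and 4.44 in controls and at 4.70, 4.48, 4.34 and 4.42 in KO mice. The highest control was within the range of the knockouts. The log2 change of 0.45 (SE 0.17, adjusted p = 0.0484 in limma) was just past the threshold, and the second probe changed by 0.22. That call was lost under 17 of 24 alternatives, and of the 8 arrays left out in turn it held only without BAT control replicate 4. Under the slide block, where the control at 4.44 is the one that shares the slide of the knockouts, the change was 0.049 (adjusted p = 0.870 in limma). Between control tissues Deptor was higher in BAT by 1.86 (SE 0.21, adjusted p = 8.39e-05 in limma), or 3.64-fold. The range of the labelled gWAT knockouts, 3.72 to 4.57, lay over that of BAT controls, 3.69 to 4.44, a pair of groups that was not tested.

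Cell type markers differed between the gWAT groups as well. Of 5 brown adipocyte markers tested, 3 were higher in the KO-labelled arrays, against 9.99% of all genes, among them Cidea, at 2.19 to 3.20 in controls and 5.51 to 6.99 in the KO-labelled arrays, and Cox8b, at 3.90 to 5.39 and 5.96 to 7.28. The summed level of the whole list of 8, as a multiple of the array's 75th percentile, was 20.95 to 51.83 in controls and 110.9 to 287.4 in the KO-labelled arrays. Ucp1 was well above background on none of the controls and on 3 of the KO-labelled arrays, and Zic1 on none of either. The other tested markers of the list, Ppargc1a and Lhx8, were lower on average and were not called. Their means were -0.57 and -2.15 in controls and -1.09 and -2.52 in the KO-labelled arrays. Of 8 macrophage markers 2 were higher, with sums of 68.69 to 95.21 and 71.67 to 199.7, and of 8 adipocyte markers 2 were lower, with sums of 1815 to 2858 and 1459 to 2027. Of 6 fibroblast markers 1 was lower, beside 7.85% of all genes, and none of the tested lymphocyte, endothelial, mesothelial or epididymal markers was called. None of 5 skeletal muscle markers tested was called and their median log2 change was -0.34, while the sum of the list, 3.525 to 24.69 in controls and 29.79 to 58.22 in the KO-labelled arrays, was carried by a single gene, Acta1 (log2 change 2.20, adjusted p = 0.0503 in limma), with Mylpf, Tnnt3, Tcap and Actn3 lower on average. The part of any of these in the level of Deptor was not tested.

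Tsc2, which encodes the GTPase-activating subunit of the TSC complex, fell in BAT. It stood at 5.38, 5.32, 5.57 and 5.38 in BAT controls and at 4.50, 4.30, 4.31 and 4.43 in BAT of KO mice. The groups were separated by more than their own ranges. The log2 change was -1.03 (SE 0.097, adjusted p = 4.65e-05 in limma), a relative expression of 0.491, and the second Tsc2 probe changed by -1.10. Of the 14280 genes tested in BAT, 1642 had a larger fall. In gWAT, Tsc2 stood at 4.03, 4.21, 4.56 and 4.63 in controls and at 4.78, 4.75, 4.89 and 4.62 in the KO-labelled arrays, where the lowest labelled knockout was within the range of the controls. That log2 change of 0.40 (SE 0.16, adjusted p = 0.115 in limma) missed the threshold, and the second probe changed by 0.62. Between control tissues Tsc2 was higher in BAT by 1.05 (SE 0.16, adjusted p = 4.04e-04 in limma). In the order of group means BAT control came first at 5.41, followed by gWAT KO at 4.76, BAT KO at 4.39 and gWAT control at 4.36, and the ranges of the last pair overlapped.

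Tsc1, the scaffold that stabilises tuberin, did not follow Tsc2. In BAT Tsc1 stood at 0.82, 1.03, 0.87 and 0.71 in controls and at 1.48, 1.29, 0.81 and 0.95 in KO mice, where 2 arrays were above all controls and the others among them. In gWAT it stood at 0.84, 1.22, 1.36 and 1.11 in controls and at 0.91, 0.72, 0.45 and 0.88 in the KO-labelled arrays, with 1 control among the labelled knockouts. The log2 changes of 0.27 in BAT (SE 0.16, adjusted p = 0.162 in limma) and -0.39 in gWAT (SE 0.16, adjusted p = 0.119) both missed the threshold.

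Rheb, the GTPase that the TSC complex acts on, ranged from 1.65 to 1.84 in BAT of KO mice and stood at 1.05, 1.31, 1.27 and 1.86 in BAT controls. The control at 1.86 was above every knockout, and it is the control on the slide of the knockouts. The log2 change was 0.36 (SE 0.17, adjusted p = 0.0884 in limma) over all arrays and -0.13 (adjusted p = 0.514 in limma) with the slide as a fixed block. In gWAT Rheb ranged from 1.22 to 1.57 in controls and from 1.23 to 1.78 in the KO-labelled arrays, with a log2 change of 0.019 (95% interval -0.33 to 0.37, adjusted p = 0.946 in limma). The control tissues differed by -0.058 (95% interval -0.47 to 0.36, adjusted p = 0.795 in limma).

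Sesn1, which encodes a Sestrin, varied most within groups, with SDs between 0.55 and 0.62 on the log2 scale. It stood at 1.49, 2.16, 2.48 and 2.77 in BAT controls and at 1.88, 1.94, 2.72 and 1.31 in BAT of KO mice. In gWAT it stood at 2.65, 3.05, 3.48 and 4.11 in controls and at 2.07, 2.48, 3.46 and 3.01 in the KO-labelled arrays. Each pair of genotypes overlapped across most of its range. The log2 changes were -0.26 in BAT (95% interval -1.04 to 0.52, adjusted p = 0.525 in limma) and -0.57 in gWAT (95% interval -1.42 to 0.28, adjusted p = 0.317), intervals that leave room for a change of more than 2-fold in either. Between control tissues Sesn1 was lower in BAT (log2 difference -1.099, SE 0.36, adjusted p = 0.0251 in limma), although the highest BAT control was above the lowest gWAT control. That call was lost without BAT control replicate 1 or 2 or gWAT control replicate 3 or 4, and the log2 difference ran from -1.32 to -0.84 as the 8 arrays were left out in turn.

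Eif4ebp1, which encodes the translation repressor 4E-BP1, fell in BAT. It stood at 6.95, 6.94, 7.19 and 7.22 in BAT controls and at 5.75, 5.75, 6.09 and 6.29 in BAT of KO mice. The groups were well apart. The log2 change was -1.11 (SE 0.15, adjusted p = 2.78e-04 in limma), a relative expression of 0.465, and 1410 of the 14280 genes tested in BAT had a larger fall. In gWAT Eif4ebp1 stood at 6.24, 6.93, 7.05 and 7.29 in controls and at 7.02, 7.05, 7.05 and 6.34 in the KO-labelled arrays. Both gWAT groups had 1 array far below the other 3, and the log2 change was -0.012 (95% interval -0.59 to 0.57, adjusted p = 0.980 in limma). The control tissues differed by 0.20 (95% interval -0.30 to 0.69, adjusted p = 0.445 in limma).

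**Figure D2:**
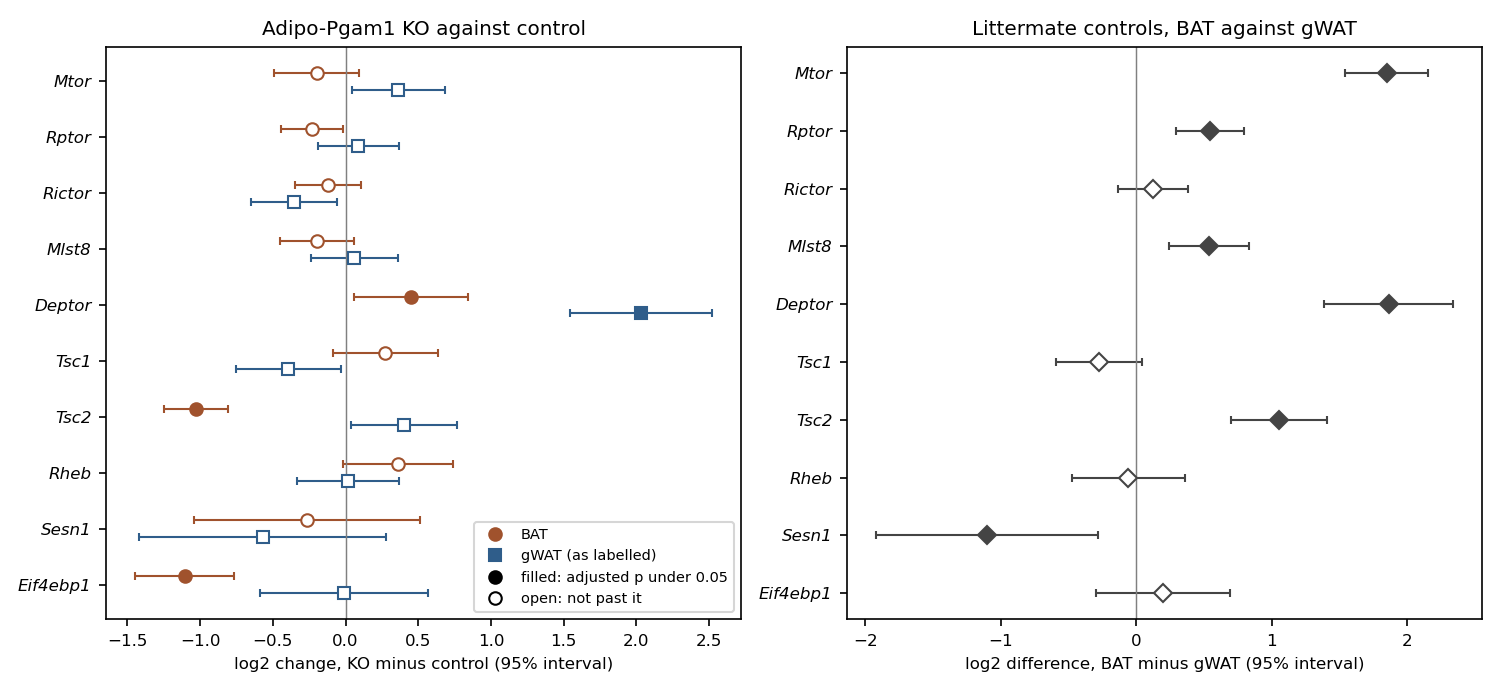
Left, log2 change of each gene in Adipo-Pgam1 KO against control in BAT (circles) and in gWAT as labelled (squares). Right, log2 difference between BAT and gWAT in littermate controls (diamonds), which are the same control arrays; bars are 95% intervals from limma and filled symbols passed an adjusted p of 0.05. Deptor in gWAT, at 2.03, and Tsc2 and Eif4ebp1 in BAT, at -1.03 and -1.11, lie farthest from 0 on the left, and Mtor and Deptor, at 1.85 and 1.86, on the right.

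Whether a change with genotype differed between the tissues was tested over all 16 arrays as an interaction, in which 48.3% of 14820 genes passed the threshold. Of the 10 genes, 5 passed. The change was more positive in gWAT for Deptor by 1.58 (SE 0.29, adjusted p = 5.08e-04 in limma), for Tsc2 by 1.43 (SE 0.18, adjusted p = 4.20e-05), for Eif4ebp1 by 1.09 (SE 0.31, adjusted p = 0.00940) and for Mtor by 0.56 (SE 0.18, adjusted p = 0.0207). It was more positive in BAT for Tsc1, with a difference of -0.67 (SE 0.23, adjusted p = 0.0250 in limma). Tsc1 and Tsc2, the partners of a complex, thus differed between the tissues in opposite directions. The call for Tsc1 was lost under 8 of 29 alternatives, among them leaving out BAT KO replicate 1 or 2, gWAT control replicate 3 or gWAT KO replicate 3, and those for Mtor and Eif4ebp1 were each lost under 2, one of them the slide block. Rptor, at 0.32 (adjusted p = 0.0711), Mlst8, at 0.26 (adjusted p = 0.212), Rictor, at -0.24 (adjusted p = 0.210), Rheb, at -0.34 (adjusted p = 0.230), and Sesn1, at -0.31 (adjusted p = 0.673), did not pass in limma.

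The BAT values depend on how the arrays were scaled, since the 75th percentile was 401 to 451 intensity units in BAT controls and 650 to 916 in KO mice. Scaling by the arrays' spike-in RNAs moved the median log2 change of all genes in BAT from -0.081 to 0.46, and scaling by Actb and Rplp0, which both rose in BAT of KO mice, moved it to -0.67. Under these scalings Mtor changed by 0.34 and -0.79, and Deptor by 0.99 and -0.14. Of the 5 scalings, 4 shift all genes of an array alike, so that a change relative to the median of all genes can differ only under quantile normalization. On that footing, with and without quantile normalization, Tsc2 lay between -0.95 and -0.59, Eif4ebp1 between -1.03 and -0.54, Deptor between 0.53 and 0.82, Rheb between 0.42 and 0.44, Tsc1 between 0.27 and 0.36, and Mtor between -0.12 and -0.084. Tsc2 and Eif4ebp1 passed the threshold in BAT in the same direction under all 24 alternatives.

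**Figure D3:**
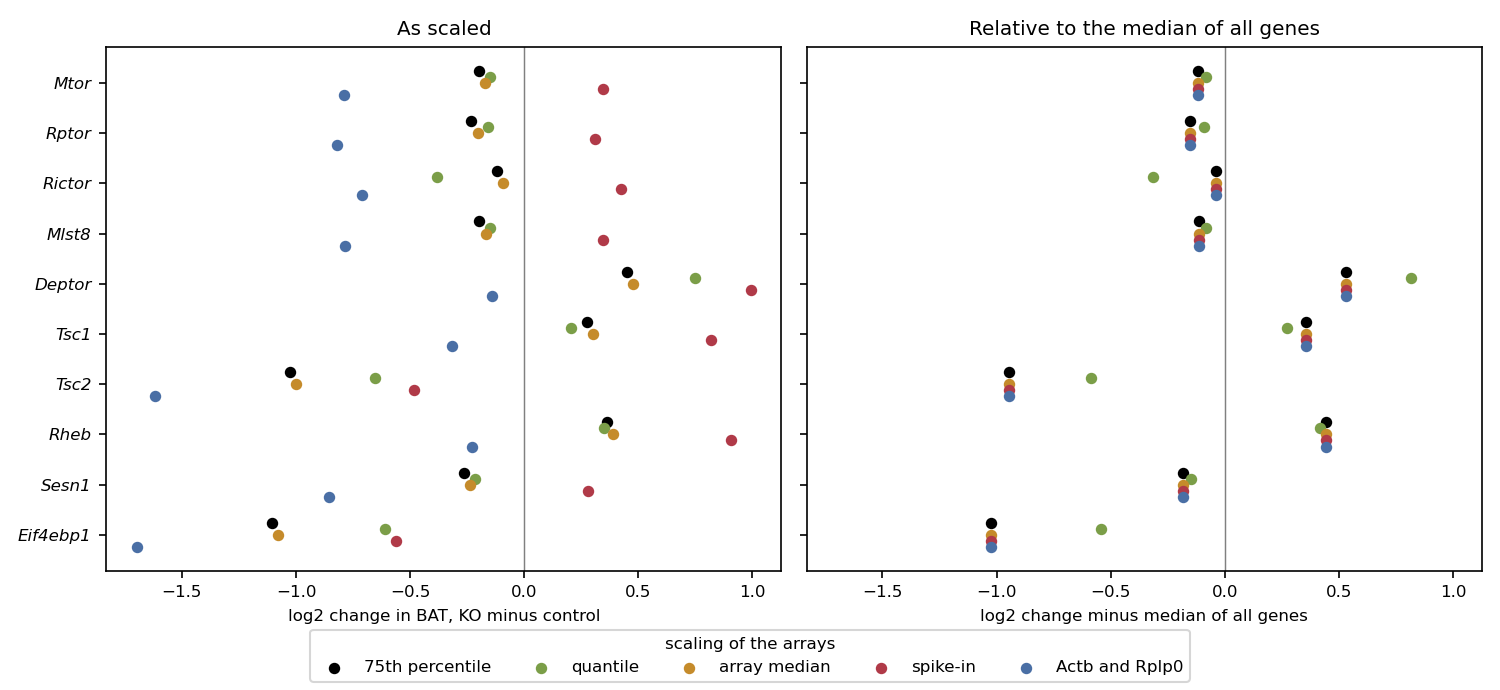
Log2 change in BAT, Adipo-Pgam1 KO against control, of the 10 genes under 5 scalings of the arrays (colours). Left, the change as scaled; right, the same change minus the median of all genes tested under that scaling. On the left Mtor runs from -0.79 to 0.34, and on the right from -0.12 to -0.084.

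Cell type markers also moved with genotype in BAT. The summed level of 8 adipocyte markers, as a multiple of the array's 75th percentile, was 1705 to 1907 in controls and 470.7 to 694.1 in KO mice, and that of 8 brown adipocyte markers was 3434 to 3716 and 1164 to 1871. The brightest genes weigh most in such a sum. Of the 8 brown adipocyte markers, 5 were called lower, beside 34% of all genes, and 3 were not called. Among these 3, Ppargc1a had a mean of 3.86 in controls and 4.50 in KO mice. The sum of 8 macrophage markers was 27.66 to 38.96 in controls and 89.75 to 135.7 in knockouts, and that of 6 fibroblast markers was 20.04 to 31.58 and 51.64 to 86.54. The sum of 8 skeletal muscle markers reached 92.29 in KO mice, against at most 1.149 in controls, and was carried by KO replicates 1 and 3. Without KO replicate 1 Tsc2 changed by -1.07 and Eif4ebp1 by -1.03, and without KO replicate 3 by -1.003 and -1.15. The part of these shifts in the levels of Tsc2, Eif4ebp1 and Deptor was not tested.

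Around the 10 genes, 69 further genes of the pathway were listed in 9 groups by role, and 68 of them had a named probe. In BAT, 14 of the 67 tested were higher in KO mice and 29 lower, beside 27.5% and 34% of all genes, and the median change was -0.29 on the log2 scale. In gWAT, 10 of 66 were higher and 4 lower in the KO-labelled arrays, beside 9.99% and 7.85% of all genes, with a median of 0.19. The genes counted as higher include Ddit4l in BAT and Rragd in gWAT, which entered those tests only through the knockouts as labelled. Relative to the median of all genes, the list lay at -0.21 in BAT and at 0.15 in gWAT, and at -0.13 in BAT and 0.13 in gWAT with quantile normalization, the single scaling that can move these values. The counts moved with those of all genes under other scalings. With spike-in scaling 27 were higher and 8 lower in BAT, beside 7238 and 1843 of all 14280 genes. With Actb and Rplp0 scaling 5 were higher and 51 lower, beside 1917 and 8901.

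Among the partners of mTOR in its complexes, 1 of 7 rose and 4 fell in BAT, beside 27.5% and 34% of all genes. Telo2, whose product helps assemble kinases of the mTOR family, rose by 0.69 (adjusted p = 0.00355), whereas its cofactor Tti1 changed by -0.59 (adjusted p = 0.00115) and Mapkap1, an mTORC2 subunit, by -0.65 (adjusted p = 6.36e-04, all in limma). In gWAT, Akt1s1, which encodes the mTORC1 inhibitor PRAS40, was higher by 0.68 (adjusted p = 0.0239 in limma) and Prr5l, an mTORC2 partner, was lower with a log2 change of -1.47 (SE 0.29, adjusted p = 0.0139 in limma). Prr5l stood at 2.09, 3.34, 2.51 and 2.63 in gWAT controls and at 0.59, 1.31, 1.49 and 1.30 in the KO-labelled arrays, and the groups did not overlap.

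Of 4 relatives of TSC and Rheb, 2 rose and 1 fell in BAT, beside 27.5% and 34% of all genes. Ddit4l, whose product inhibits mTORC1, was well above background on none of the BAT controls and on all 4 knockouts, at -0.50, 0.19, 0.27 and -1.64. It was at least 11.7-fold higher, taking for each control the lowest signal counted as well above background on its array. Ddit4l entered the test only through the knockouts, so its call sets signal against background and is a description. Rhebl1, a relative of Rheb, rose by 1.56 (SE 0.26, adjusted p = 8.82e-04 in limma). Tbc1d7, the third subunit of the TSC complex, changed by -0.96 in BAT (SE 0.11, adjusted p = 1.32e-04 in limma) and by 0.75 in gWAT (SE 0.17, adjusted p = 0.0200).

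Of the genes of the Rag GTPases and the Ragulator subunits that anchor them, 2 of 9 rose and 4 fell in BAT. Of all genes, 27.5% were higher and 34% lower there. Rragd, a Rag GTPase gene, stood at 0.43, -0.14, -0.65 and -0.80 in BAT controls and at 1.76, 2.08, 2.41 and 1.90 in KO mice, a change of 2.33 (SE 0.27, adjusted p = 1.27e-04 in limma). In gWAT Rragd stood at -1.17, -4.35, -5.36 and -5.17 in controls, of which 1 array was well above background, and at 0.34, -0.96, -0.16 and -0.88 in the KO-labelled arrays. It entered the gWAT test only through the KO-labelled arrays, so its call there is a description. Every labelled knockout was above every control. The Ragulator genes Lamtor4 and Lamtor2 changed by -0.94 (adjusted p = 1.25e-04) and -0.85 (adjusted p = 4.95e-04) in BAT in limma. Rraga was higher in gWAT by 0.51 (adjusted p = 0.0386 in limma). There 2 of the 9, Rragd among them, were called higher and none lower, beside 9.99% and 7.85% of all genes.

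The GATOR and KICSTOR genes, which relay amino acid supply to the Rags, had 7 of 11 lower and none higher in BAT, where 34% of all genes were lower, with a median log2 change of -0.53. In gWAT 3 of the 11 were higher and none lower, beside 9.99% of all genes higher, with a median of 0.47. Between control tissues 10 of the 11 were higher in BAT, beside 35.4% of all genes. Relative to the median of all genes, the group lay at -0.45 in BAT and 0.42 in gWAT, and with quantile normalization at -0.44 and 0.40. As scaled, the BAT median was 0.015 under spike-in scaling, with 3 higher and 2 lower, beside 7238 and 1843 of all 14280 genes. Nprl2, a GATOR1 subunit, stood at -0.061, -0.15, 0.26 and 0.40 in BAT controls and at -1.14, -0.97, -1.04 and -0.61 in BAT of KO mice. Nprl2 changed by -1.05 in BAT (adjusted p = 6.01e-04) and by 0.56 in gWAT (adjusted p = 0.04998), and Nprl3, its partner, by -0.53 (adjusted p = 0.00194) and 0.47 (adjusted p = 0.0486), all in limma. Also in BAT, Depdc5, another GATOR1 subunit, changed by -0.85 and Kptn of KICSTOR by -0.84 (adjusted p = 2.37e-04 and 7.34e-04 in limma), and in gWAT Sec13 of GATOR2 was higher by 0.74 (adjusted p = 0.0178).

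Of 6 amino acid sensors and 3 genes of the folliculin complex, 3 rose in BAT and none fell, beside 27.5% and 34% of all genes. These were Lars, the leucyl-tRNA synthetase, by 0.88 (adjusted p = 8.52e-04), Sesn3, a relative of Sesn1, by 0.71 (adjusted p = 8.28e-04), and Fnip2, a partner of folliculin, by 1.32 (adjusted p = 1.71e-04, all in limma). None of the 9 passed in gWAT, where 9.99% of all genes were called higher and 7.85% lower. Of 9 genes of AMPK and its activator LKB1, 2 rose and 5 fell in BAT, beside the same shares of all genes, 27.5% and 34%. Prkag2, a regulatory AMPK subunit, changed by -1.60 in BAT (SE 0.17, adjusted p = 8.32e-05 in limma) and by -0.86 in gWAT (SE 0.13, adjusted p = 0.00578), and Prkaa2, a catalytic subunit, by 0.61 (adjusted p = 0.00209) and 1.12 (adjusted p = 0.0428). Stk11, which encodes LKB1, changed by -0.67 in BAT (adjusted p = 0.00110 in limma), and Prkab1 was higher in gWAT by 0.73 (adjusted p = 0.0316).

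Among 12 genes of translational control, 2 rose and 6 fell in BAT, beside 27.5% and 34% of all genes. Eif4ebp2, the relative of Eif4ebp1, changed by -1.63 (SE 0.091, adjusted p = 6.05e-06 in limma) and Pdcd4, an inhibitor of the helicase eIF4A, by -1.25 (adjusted p = 6.52e-05), while Eef2k, the kinase that restrains elongation, rose by 1.02 (adjusted p = 0.00174). In gWAT Pdcd4 changed by -0.66 (adjusted p = 0.0282 in limma) and Rps6kb2, an S6 kinase gene, by 0.50 (adjusted p = 0.0288). Of 6 other targets of the pathway, 2 rose and 2 fell in BAT, beside 27.5% and 34% of all genes. Those that fell were Tfeb, the lysosomal transcription factor, at -0.88 (adjusted p = 1.69e-04 in limma), and the autophagy kinase gene Ulk1, at -0.61 (adjusted p = 6.16e-04). Grb10, an adaptor that mTORC1 stabilises, stood at -2.40, -2.23, -2.09 and -2.69 in BAT controls and at -0.75, -0.48, -0.029 and -0.90 in BAT of KO mice, a rise of 1.81 (SE 0.21, adjusted p = 1.15e-04 in limma). In gWAT Grb10 was lower in the KO-labelled arrays, with a log2 change of -0.84 (SE 0.21, adjusted p = 0.0303 in limma).

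In both tissues 9 of the 66 listed genes tested together passed the threshold, 5 with the same sign and 4 with opposite signs. Of the 13609 genes tested in both, 6.29% and 4.86% did so, shares near those of the list. Rragd, among the 5, entered the gWAT test only through the KO-labelled arrays, so its place in the count is a description. The 4 were Tbc1d7, Nprl2 and Nprl3, lower in BAT and higher in gWAT, and Grb10, higher in BAT and lower in gWAT. The gWAT change minus the BAT change was 1.71 for Tbc1d7, 1.61 for Nprl2, 0.99 for Nprl3 and -2.66 for Grb10, a description, since these genes were picked for their opposite signs. Like Tsc2, Tbc1d7, Nprl2 and Nprl3 stood higher in BAT than in gWAT controls, by 1.44, 1.71 and 0.39. Grb10 stood lower in BAT, with a log2 difference of -2.56. The same control arrays enter the changes with genotype. When single arrays were left out, all 24 listed genes named for BAT kept their calls. Of the 14 named for gWAT only Prr5l and Prkag2 did so for each of the 8 arrays, and the calls of Rraga, Prkaa2, Nprl2, Nprl3 and Rps6kb2 held for 1 of the 8.

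**Figure D4:**
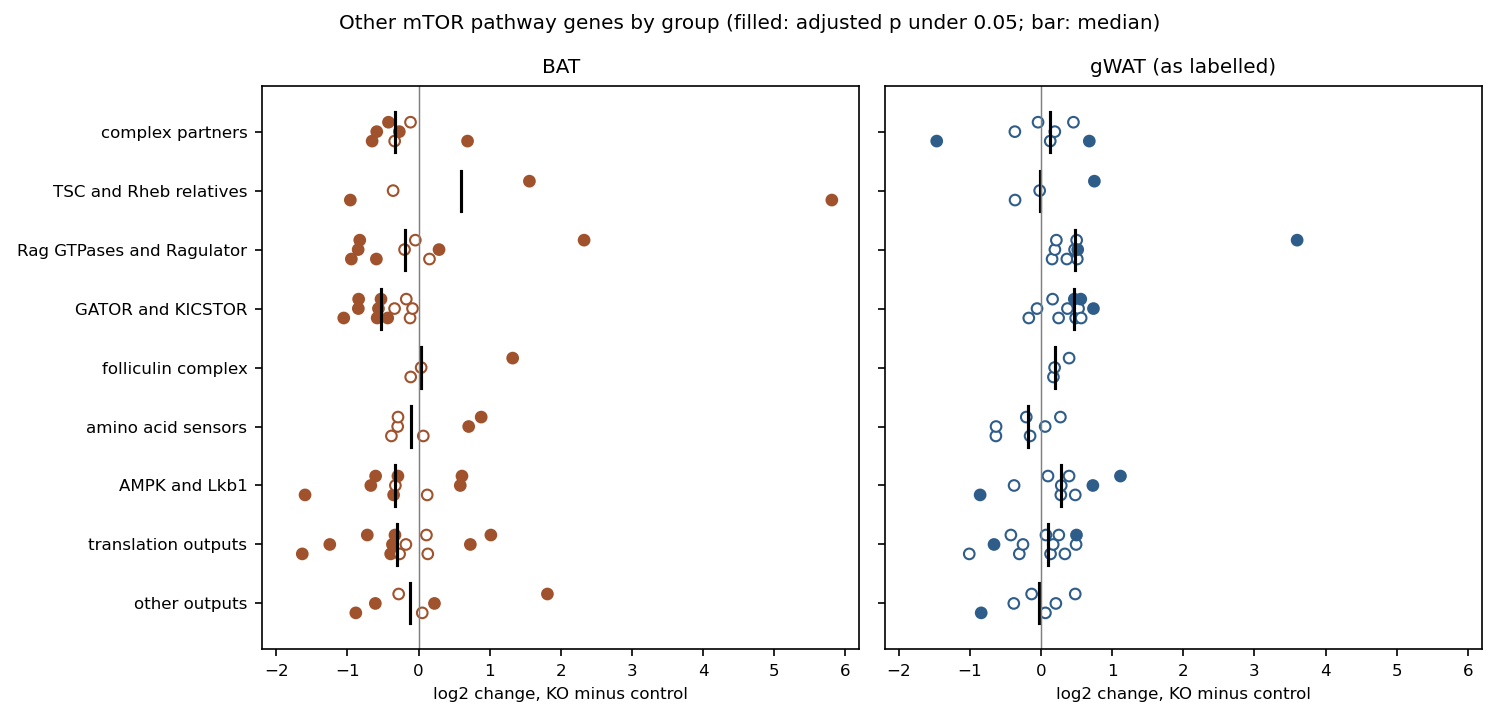
Log2 change, Adipo-Pgam1 KO against control, of the listed pathway genes tested in BAT (left, 67 genes) and in gWAT as labelled (right, 66 genes), in 9 groups by role. Filled points passed an adjusted p of 0.05 in limma and the black bar is the median of the group. The GATOR and KICSTOR genes lie at a median of -0.53 in BAT and 0.47 in gWAT, and the rightmost BAT point is Ddit4l, whose controls were not well above background, so that its plotted change is no measured fold.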

How the data were processed

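RNA of 16 adipose samples was measured on SurePrint G3 Mouse arrays, and the intensities were extracted by the authors with Agilent Feature Extraction 10.7.1.1. The deposited intensity values used here are the background-subtracted processed signals of each array. Spots that the software called non-uniform were left out, and spots of a probe were averaged. From these, log2 signals minus each array's 75th percentile were computed in R 4.3.3, and limma 3.58.1 was fitted to the brightest probe of each gene. Genes entered the test where at least 1 compared group had all 4 arrays well above background. Probes were named through their RefSeq accessions (32994 of 35886 with one). The members and lists were chosen with earlier results of these data known. Pathway genes are named where they are among the 3 largest called changes of their list, or are called with opposite signs in the tissues. Fits were tested on simulated data. The alternatives were other scalings, filters, probes, blocks and tests, normexp on the median signals (offset 50), the authors' normalized intensity table, and single arrays left out. The number of arrays limits the precision. No column was left unmapped, and 1 listed gene, Kics2, matched no probe name.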

Additional observations from a re-analysis of the deposited data

Results flagged for a closer look

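In each of the 40 sets of 4 arrays of 1 gene and group, the gap between an extreme array and its nearest neighbour was compared with the range of the group, and 3 arrays had a share above Dixon's 95% critical value, which chance exceeds in about 1 set in 20. For Mlst8, gWAT control replicate 3 stood at 1.95, above the other 3 controls at 1.56 to 1.58, and the KO-labelled gWAT replicate 3 stood at 1.58, below the others at 1.76 to 1.77. For Eif4ebp1, the KO-labelled gWAT replicate 4, which was 14 weeks old, stood at 6.34 against 7.02 to 7.05 on the other 3 arrays.

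The change with genotype differed between the tissues, by the interaction test over 16 arrays, for 5 of the 10 genes. That test was passed by 48.3% of all 14820 genes tested, so the count by itself does not set the 10 genes apart. The difference, gWAT change minus BAT change on the log2 scale, was 1.58 for Deptor, 1.43 for Tsc2, 1.09 for Eif4ebp1, 0.56 for Mtor and -0.67 for Tsc1. For Deptor the rise was the larger one in gWAT, whereas for Tsc2 and Eif4ebp1 a called fall in BAT stood against gWAT changes that missed the threshold, and for Mtor and Tsc1 neither tissue passed by itself. The gWAT changes rest on labels that Pgam1 went against. Its probe fell in BAT of KO mice, and its place relative to the floxed exons was not tested. Of the 5 brown adipocyte markers tested in gWAT, Cidea, Cox8b and Otop1 were called higher in the KO-labelled arrays. Ppargc1a and Lhx8 were lower there on average and not called.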

How the results depend on the processing

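Tsc2 and Eif4ebp1 in BAT kept their calls under all 24 alternatives, as did Mtor, Deptor and Tsc2 between control tissues, and Deptor and Tsc2 kept theirs in the interaction under all 29. Deptor in gWAT kept its call under 23 of 24, the exception being the slide block. Of the values of the 10 genes under alternatives, 202 of 240 in BAT, 214 of 240 in gWAT, 268 of 290 in the interaction and 215 of 240 between control tissues stayed on the same side of 0 and of the threshold, and the cause of the others was not tested unless named here. The listed pathway genes named for BAT lost 12 of 575 calls, and those named for gWAT lost 132 of 335.

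The single rise in BAT, of Deptor, was lost (0 genes higher) with Actb and Rplp0 scaling, without a filter on dim probes, with the mean of all probes, with probes without a symbol tested as well, with the slide as a fixed or a random block, with the replicate block, in 1 model over all 16 arrays, and by the methods' t-test with or without adjustment. Spike-in scaling gave 4 higher in BAT, beside 7238 of all 14280 genes, and Actb and Rplp0 scaling 7 lower, beside 8901. With arrays left out in turn, 0 to 2 were higher. In gWAT the number higher was 4 with spike-in scaling, beside 4865 of all 14149 genes. It was 3 in 1 model over all 16 arrays and by the unadjusted t-test of the methods, beside 2438 and 2645. The number lower was 1 and 2 by that pair, beside 1602 and 2028. In the interaction 3 genes passed with spike-in scaling, beside 3044 higher and 2506 lower of all 14820 genes. With the slide block each BAT or gWAT contrast rests on 1 control array. Of all 14304 genes tested between control tissues, 4315 were lower in BAT with quantile normalization and 5105 with spike-in scaling. With Actb and Rplp0 scaling 2937 of them were lower, and 3950 by the methods' t-test after adjustment. Between control tissues the slide block left 3 higher and 0 lower in BAT, the number lower was 2 with quantile normalization and with spike-in scaling and 0 with Actb and Rplp0 scaling and by the methods' t-test after adjustment, and it ran from 0 to 2 with arrays left out.

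The following directions reversed. With spike-in scaling the BAT changes were 0.34 for Mtor, 0.31 for Rptor, 0.42 for Rictor, 0.35 for Mlst8 and 0.28 for Sesn1, the gWAT changes 0.086 for Rictor, 0.051 for Tsc1 and 0.43 for Eif4ebp1, and the control differences -0.11 for Rictor and -0.033 for Eif4ebp1. With Actb and Rplp0 scaling the BAT changes were -0.14 for Deptor, -0.32 for Tsc1 and -0.23 for Rheb, the gWAT change -0.039 for Rheb, the interactions 0.30 for Rictor, 0.19 for Rheb and 0.23 for Sesn1, and the control differences 0.061 for Tsc1 and 0.28 for Rheb. Quantile normalization gave -0.0011 for Mlst8 and -0.044 for Rheb in gWAT and -0.58 for Eif4ebp1 between control tissues, the last past the threshold. Centring on array medians gave 0.11 for Eif4ebp1 in gWAT, and normexp gave 0.088 for Eif4ebp1 and -0.0015 for Mlst8 there. The mean of all probes gave 0.14 in BAT and -0.080 between control tissues for Rictor. For Rheb, the slide as a fixed block gave -0.13 in BAT, 0.18 in the interaction and 0.42 between control tissues, and as a random block 0.011 between control tissues. Leaving out single arrays gave -0.22 to 0.16 for Eif4ebp1 and -0.090 to 0.091 for Rheb in gWAT, and -0.013 to 0.34 and -0.22 to 0.050 between control tissues.

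The same-numbered arrays did not all deviate together, so the numbers were not taken as pairs. The replicate block left 3836 genes higher and 4773 lower in BAT, near the 3927 and 4849 without it, and 558 and 530 in gWAT in place of 1414 and 1111. Over all genes, gWAT calls numbered 66 higher and 118 lower with the slide block. They ran from 587 and 493 without KO-labelled replicate 1 to 2088 and 1124 without KO-labelled replicate 4.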
